A study of Mus musculus with 12 samples.

Results

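The TRIM family was examined in BMDMs, mouse macrophages that were differentiated in culture from cells of the bone marrow. Members were all genes whose symbol starts with Trim followed by a number, which gave 66 genes of the 23847 rows in the tables. Expression was measured by poly-A RNA-seq in 12 samples, 3 in each of 4 groups. All groups came from wild-type C57BL/6 mice aged 8 to 12 weeks, and all cells were differentiated for 6 days with the supernatant of L929 cells, a source of M-CSF. The control group received neither stimulus. The IL-4 group received IL-4, a cytokine of alternative polarization, at 20 ng/ml for 24 h. The LPS group received LPS, a bacterial cell wall component that activates inflammation, at 100 ng/ml for 3 h per the labels, while the study's methods write the dose in nM. The IL-4+LPS group was pretreated with the same dose of IL-4 and then received LPS. For its comparison of LPS responses the study names 3 individual animals from 2 independent experiments. These are cultured cells, so the groups model macrophages of a dish and not of a tissue.

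TRIM proteins carry a RING finger, B-box zinc fingers and a coiled coil, followed by a C-terminal domain that differs between subfamilies. The RING finger recruits an E2 enzyme that carries activated ubiquitin, and most members act as E3 ubiquitin ligases, so that the C-terminal domain selects what is marked. In macrophages the family is best known for antiviral restriction and for the tuning of signals from RNA, DNA and Toll-like receptor sensors. Several members are themselves genes of the interferon response, and others are chromatin regulators or bind microtubules.

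LPS divided the family. Of the 35 members that reached 1 FPKM (fragments counted on a gene, divided by its length in kilobases and by the size of the library) in at least 1 sample, 14 rose and 18 fell with LPS, and the remaining 3, Trim14, Trim23 and Trim35, did not pass the test. Of all rows tested 16.9% were called higher and 57.7% lower, so the lowered share of the family was close to that of all rows. Promoter sequence is given first, since a motif of the interferon response was found in windows of raised and not of lowered members. RefSeq promoter windows (GRCm38.p6, the assembly also called mm10), which run from 250 bases before to 50 bases after an annotated start, were at hand for 50 of the 66 members, among them 12 of the 14 raised and 13 of the 18 lowered. Tested members with no window were Trim3, Trim8, Trim11, Trim14, Trim16, Trim33, Trim35, Trim36 and Trim65. The core of the interferon-stimulated response element, an element bound by interferon regulatory factors, was searched as GAAANNGAAA on both strands. It was present in the windows of 7 of the 12 raised members (Trim12a, Trim12c, Trim21, Trim26, Trim30a, Trim30d and Trim34a) and of 0 of the 13 lowered members. Among all 27025 genes with a window, 3.99% held the core. The stretches are shown because they hold this core, which is in capitals. They are written 5′ to 3′ along the strand of the gene, and a core of the opposite strand, the case in all but Trim21, therefore reads as its reverse complement.
Trim30a, minus strand, chr7:104465194-104465259: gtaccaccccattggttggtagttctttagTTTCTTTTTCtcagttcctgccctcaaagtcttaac
Trim30d, minus strand, chr7:104507851-104507920: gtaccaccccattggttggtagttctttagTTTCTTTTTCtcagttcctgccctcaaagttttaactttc
Trim12c, minus strand, chr7:104353350-104353408: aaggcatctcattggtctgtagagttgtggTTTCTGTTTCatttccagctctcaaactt
Trim26, plus strand, chr17:36836956-36837031: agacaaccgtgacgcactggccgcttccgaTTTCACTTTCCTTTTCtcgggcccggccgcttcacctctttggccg
Trim12a, minus strand, chr7:104315466-104315495: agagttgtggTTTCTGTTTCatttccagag
Trim34a, plus strand, chr7:104244457-104244486: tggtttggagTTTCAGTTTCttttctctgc
Trim21, minus strand, chr7:102565447-102565476: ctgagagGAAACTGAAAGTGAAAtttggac

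In Trim30a, Trim30d, Trim12c and Trim26 the core lay before the annotated start, with its first base 36, 41, 29 and 160 bases upstream. In Trim12a, Trim34a and Trim21 it lay just after the start, from base 11, 11 and 14 of the transcript, and only 30 bases are shown. Trim26 and Trim21 each held 2 overlapping cores. Aligned at the core, the Trim30a and Trim30d stretches were identical at 65 of 66 bases and those of Trim12a and Trim12c at 28 of 30, so these pairs are copies of a shared sequence and not separate occurrences. A second Trim30a window, for another annotated start, also held the core. The other raised members with a window, Trim13, Trim25, Trim30b, Trim34b and Trim56, did not hold these letters in it. Of the 24 members with a window that stayed below 1 FPKM, only Trim2 held the core. The gamma-activated site TTCNNNGAA was found in 0 of the 12 raised and 0 of the 13 lowered members, against 9.55% of all genes. The spacing preferred by STAT6, TTCNNNNGAA, was found in 0 of the 12 raised members and in 2 of the 13 lowered ones (Trim39 and Trim68), against 8.01% of all genes. An NF-kB site was found in Trim13 among the raised members and in Trim28 and Trim7 among the lowered ones, against 9.55% of all genes. A match describes letters in a window and no binding was measured in these files, and a window without a match says only that the letters are not in it.

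The samples were checked before the members were compared. FPKM totals were 457583 to 495025 per sample, and the relative depth, read from the steps between low values with control replicate 1 set to 1.0, ran from 0.99 to 3.29. Replicate 1 stood apart from replicates 2 and 3 in all 4 groups, on the first principal component of the deviations from the group means (28.15% of that variance). It was also the shallowest sample of each group, at 0.99 to 1.03 against 1.27 to 3.29 in replicates 2 and 3. Depth and replicate number cannot be told apart here. Counts of members are therefore also given for replicates 2 and 3 alone. The macrophage markers Emr1, Csf1r, Cd68, Itgam, Lyz2, Mertk and Fcgr1 were all expressed, and most of their summed level was Lyz2. The sum was 19233 to 20599 FPKM without stimulus and 7571 to 7785 after IL-4, and with LPS it was 15468 to 16697 alone and 6567 to 6954 after IL-4. The study reports Lyz2 itself as a gene repressed by IL-4. With IL-4 alone 6 of the 7 markers fell, all but Cd68 (log2 fold change -0.21, limma adjusted p = 0.14). The summed markers of T cells, mast cells, erythroid cells, fibroblasts and endothelial cells were below 1 FPKM in every sample. B cell markers summed to at most 4.36 FPKM, nearly all from Cd79b, and dendritic cell markers to at most 2.94 FPKM, both highest in IL-4+LPS samples. Markers of neutrophils and their precursors (Mpo, Elane, Camp and Ngp, the last with the highest values) summed to 64.8 to 142 FPKM without stimulus and 24.3 to 65.4 after IL-4, and with LPS to 72.2 to 182 alone and 51.4 to 128 after IL-4. The part of these lists in the results was not tested. In bulk RNA a smaller share of a cell type and less RNA per cell cannot be told apart.

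More members were expressed than not. The 35 members that reached 1 FPKM in at least 1 sample were 53% of the family, against 46.9% of all rows, and 26 members reached it in all 12 samples. In all 3 samples of a group it was reached by 34 members without stimulus, 34 after IL-4, 29 after LPS and 26 after both. Trim30b reached it only in the LPS group, with 1.00, 1.23 and 1.2 FPKM, so it passed the filter through the group in which it was high. Of the 31 members below 1 FPKM, 11 were listed at 0 in all samples (Trim31, Trim40, Trim42, Trim50, Trim52, Trim55, Trim60, Trim61, Trim63, Trim67 and Trim71), among them the muscle ligases Trim55 and Trim63. The other 20 were highest in Trim45, at no more than 0.775 FPKM.

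Trim25 had the highest mean over all samples and led in control and IL-4 samples, while Trim30a led in LPS samples (121 ± 11.4 against 78.8 ± 12.6 FPKM) and in IL-4+LPS samples (107 ± 1.76 against 94.5 ± 7.9 FPKM). Trim25 has been described as a ligase that attaches ubiquitin to the RNA sensor RIG-I. Its control samples were at 57.7, 54.6 and 51.2 FPKM and its IL-4 samples at 41.1, 44.9 and 43.8. With LPS alone it was at 64.2, 86.8 and 85.2 FPKM, and with both stimuli at 85.8, 101 and 96.5. Every sample with LPS lay above every sample without it. The highest means after it over all samples were those of Trim30a, Trim35, Trim21 and Trim28. In control samples alone Trim25 led with 54.5 ± 3.25 FPKM (mean ± SD, n = 3), followed by Trim35 at 38.3 ± 6.04, Trim28 at 33.9 ± 8.0, Trim8 at 31.8 ± 0.706, Trim47 at 26.5 ± 4.16 and Trim14 at 25.8 ± 5.37. The order of Trim35, Trim28 and Trim8 in control lay within their spread, as did that of Trim47 and Trim14. Control means of at least 10 FPKM were reached by 14 members. Summed over the family, expression was 403 to 425 FPKM without stimulus, 325 to 340 after IL-4, 593 to 659 after LPS and 566 to 582 after both, so the 4 groups did not overlap in their summed level. The members raised by LPS carried the increase by construction, from 144 to 182 FPKM in control to 455 to 521 FPKM in LPS samples.

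**Figure D1:**
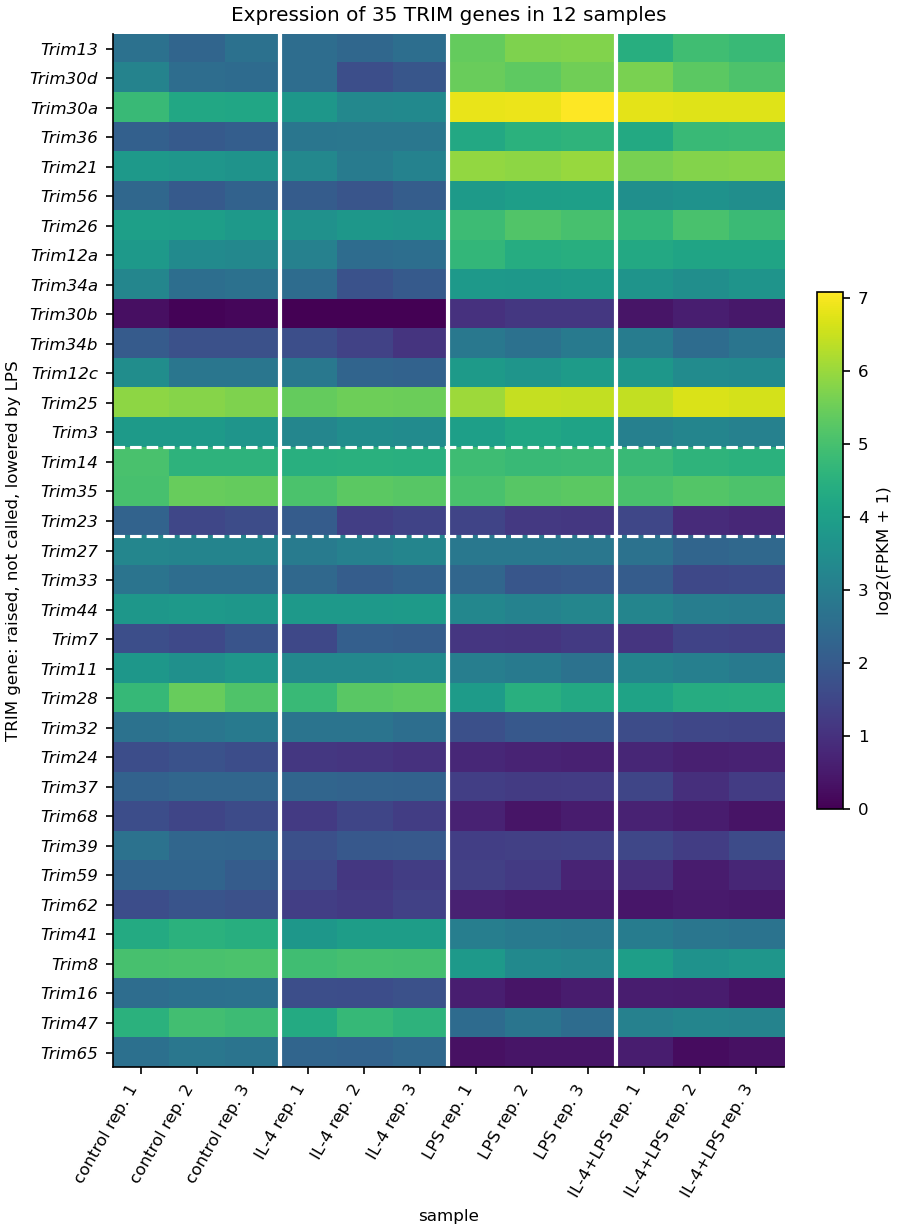
Heat map of log2(FPKM + 1) for the 35 TRIM genes that reached 1 FPKM (vertical axis, ordered by the change with LPS, with dashed lines between raised, not called and lowered genes) in the 12 samples (horizontal axis, 3 replicates per group). The 14 raised genes are brighter in both groups with LPS, except Trim3, which is darker in IL-4+LPS, and the 18 lowered genes are darker in both.

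The response to LPS alone was tested with limma on log2(FPKM + 1), with adjustment over all 11191 expressed rows and a threshold of 0.05. Called members were 14 higher and 18 lower. Of all rows 16.9% were called higher and 57.7% lower, so the raised share of the family was above the background and the lowered share was close to it. The median row shifted by -0.44 on the log2 scale with LPS (-0.14 after each sample was scaled to its median). With median scaling 15 members were higher and 15 lower, against 26.5% and 39.8% of all rows. Trim14 was then called higher (0.47, limma adjusted p = 0.0071), and the calls of Trim27, Trim33 and Trim7 were lost. Replicates 2 and 3 alone gave 15 higher and 20 lower, against 19.5% and 62.8% of all rows. In all 32 called members the LPS samples did not overlap with the control samples, as in 97.5% of all called rows. One of the 14, Trim30b, was tested only because it reached 1 FPKM with LPS, and 13 raised members remain without it. Among the 18 lowered, Trim16, Trim24, Trim62, Trim65 and Trim68 reached 1 FPKM only in control and IL-4 samples. They passed the filter through the groups in which they were high, and their falls carry the same limit.

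Among signalling and antiviral members, 5 rose (Trim13, Trim21, Trim25, Trim26 and Trim56), 5 fell (Trim8, Trim27, Trim44, Trim59 and Trim65) and 3 did not pass the test. Of all rows 16.9% were called higher and 57.7% lower. Trim13, a ligase anchored in the membrane of the endoplasmic reticulum, was at 5.27, 3.99 and 5.19 FPKM in control and at 41.7, 50.9 and 52.2 in LPS samples. All LPS samples lay far above the control samples, with a log2 fold change of 3.08 ± 0.14 (SE; limma adjusted p = 2.66e-08), the largest rise of the family. Trim21, the cytosolic antibody receptor that marks antibody-coated virus, was at 13.1, 12.1 and 11.5 FPKM in control and at 59.7, 57.7 and 61.8 in LPS samples. Replicates were tight in both groups, and the log2 fold change was 2.20 ± 0.09 (limma adjusted p = 1.47e-08). Trim56, which has been tied to the STING pathway, rose from 3.62 ± 0.559 to 14.3 ± 0.75 FPKM, and Trim26, a gene of the major histocompatibility region, from 14.3 ± 0.893 to 31.5 ± 3.28 FPKM (mean ± SD). On the log2 scale this was 1.73 ± 0.10 for Trim56 and 1.08 ± 0.10 for Trim26. Trim25 rose less, by 0.51 ± 0.11.

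The opposite response was largest in Trim65, a ligase for the RNA sensor MDA5. It was at 5.17, 6.01 and 5.65 FPKM in control and at 0.255, 0.325 and 0.327 in LPS samples. Every LPS sample was below 1 FPKM, and the ratio of the control mean to the LPS mean was 18.6 (log2 fold change -2.34 ± 0.09, limma adjusted p = 1.26e-08). Trim8, which binds the cytokine feedback inhibitor SOCS1, was at 31.1, 31.9 and 32.5 FPKM in control and at 13.2, 9.31 and 8.49 in LPS samples. LPS replicate 1 was the highest of its group and still below every control sample, and the log2 fold change was -1.56 ± 0.14. Trim59 fell by 1.12 ± 0.18, from 3.62 ± 0.39 to 1.16 ± 0.48 FPKM, and Trim44, which lacks a RING finger, by 0.56 ± 0.08. Trim27 fell by 0.39 ± 0.10 as deposited and was at -0.07 (limma adjusted p = 0.528) after median scaling.

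**Figure D2:**
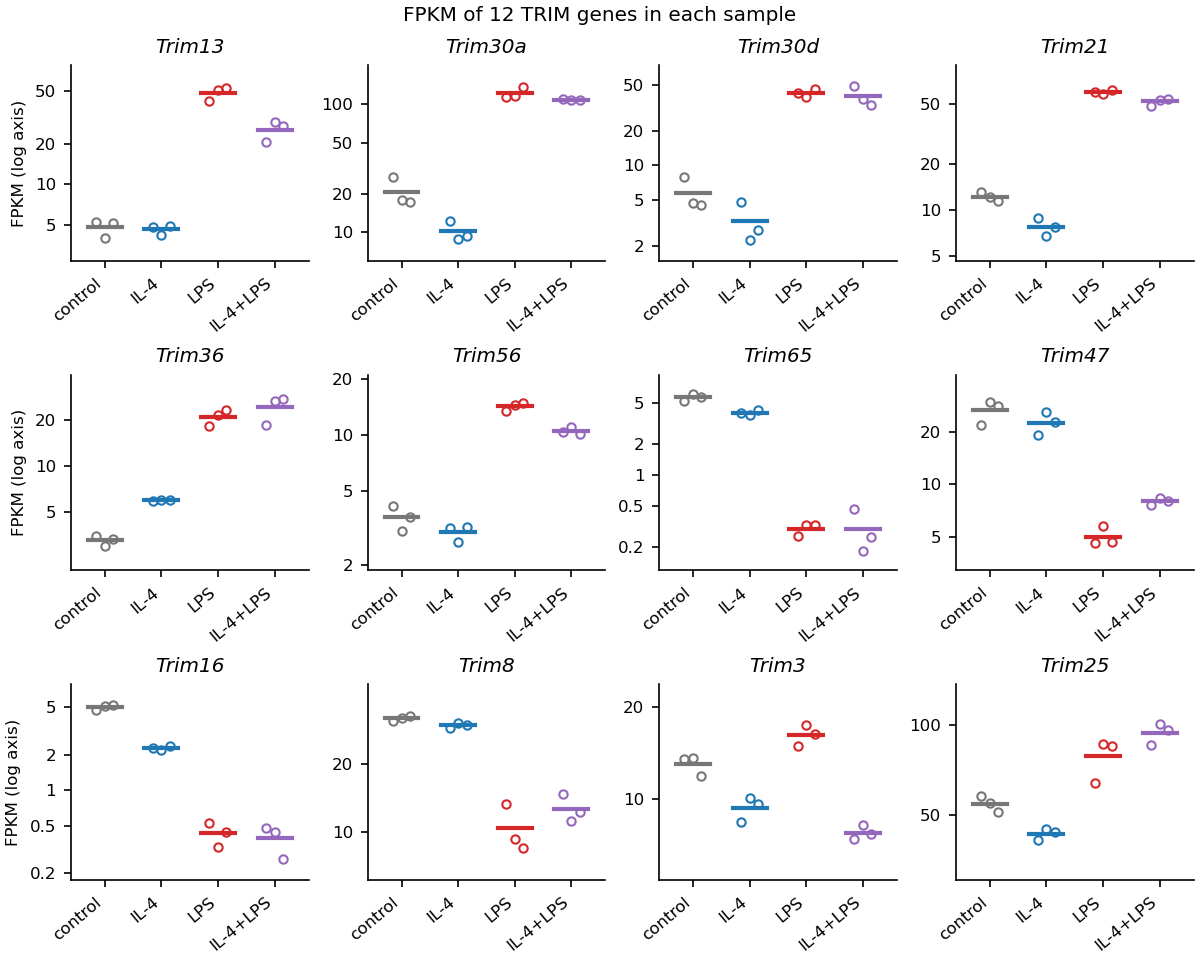
FPKM of 12 TRIM genes in each sample (vertical axes, logarithmic and scaled to each gene) by group (horizontal axes). Circles are samples, drawn from replicate 1 on the left to replicate 3 on the right, and bars are group means. The genes of the top row and Trim36 and Trim56 are higher in every sample with LPS, Trim65, Trim47, Trim16 and Trim8 are lower in every sample with LPS, and Trim3 is highest in LPS and lowest in IL-4+LPS samples.

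The cluster of genes related to Trim5 on chromosome 7 rose together. Human TRIM5 restricts retroviruses at the capsid, and mouse Trim30a, of the same cluster, has been described as a brake on Toll-like receptor signaling. The run held 9 members within 316.6 kb, from 104218795 to 104535361. All 7 that were tested rose with LPS, against 16.9% of all rows. Among the 7 Trim30b had to differ, since it passed the filter only with LPS, which leaves 6 of 6. Trim6 (at most 0.362 FPKM) and the pseudogene Trim30e-ps1 (at most 0.0389 FPKM) were not expressed. Trim30a was at 26.8, 17.9 and 17.1 FPKM in control and at 113, 116 and 134 in LPS samples, and Trim30d was at 7.96, 4.75 and 4.57 FPKM in control and at 42.9, 39.0 and 45.9 in LPS samples. Control replicate 1 was the highest of its group for both genes and remained far below the LPS samples. Their log2 fold changes were 2.52 ± 0.16 and 2.72 ± 0.24 (limma adjusted p = 2.76e-07 and 2.42e-06). The 5 other tested members of the cluster rose by 0.80 to 0.99, from 10.5 ± 2.45 to 21.7 ± 2.46 FPKM for Trim12a and from 6.23 ± 1.98 to 13.0 ± 0.379 FPKM for Trim34a (n = 3). The samples of Trim34b were at 3.12, 2.38 and 2.37 FPKM in control and at 6.17, 5.24 and 6.37 with LPS, and those of Trim12c at 10.1, 5.89 and 5.81 and at 13.5, 11.8 and 13.9. Control replicate 1 was again the highest of its group in each of these genes, and no control sample reached an LPS sample. The interferon core shown above was present in 5 of these 7 windows, including those of Trim30a and Trim30d, whose rise was the largest of the cluster on the log2(FPKM + 1) scale. By the ratio of means Trim30b, without the core, rose most (9.44, against 7.39 for Trim30d and 5.87 for Trim30a). Reads can be split between some of these copies, since 61.9% of the 50-base words of the longest Trim34a transcript and 59% of those of Trim34b occur in another gene, against 34.4% for Trim12c, 8.3% for Trim30d and 6.5% for Trim30a, and values of Trim34a, Trim34b and Trim12c are uncertain for that reason. For Trim13 the share was 14.5%. Exons of Trim34a also overlap those of Gm47248 on the opposite strand over 23.5% of their bases. Reads of both cannot be told apart if the libraries did not keep strand.

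**Figure D3:**
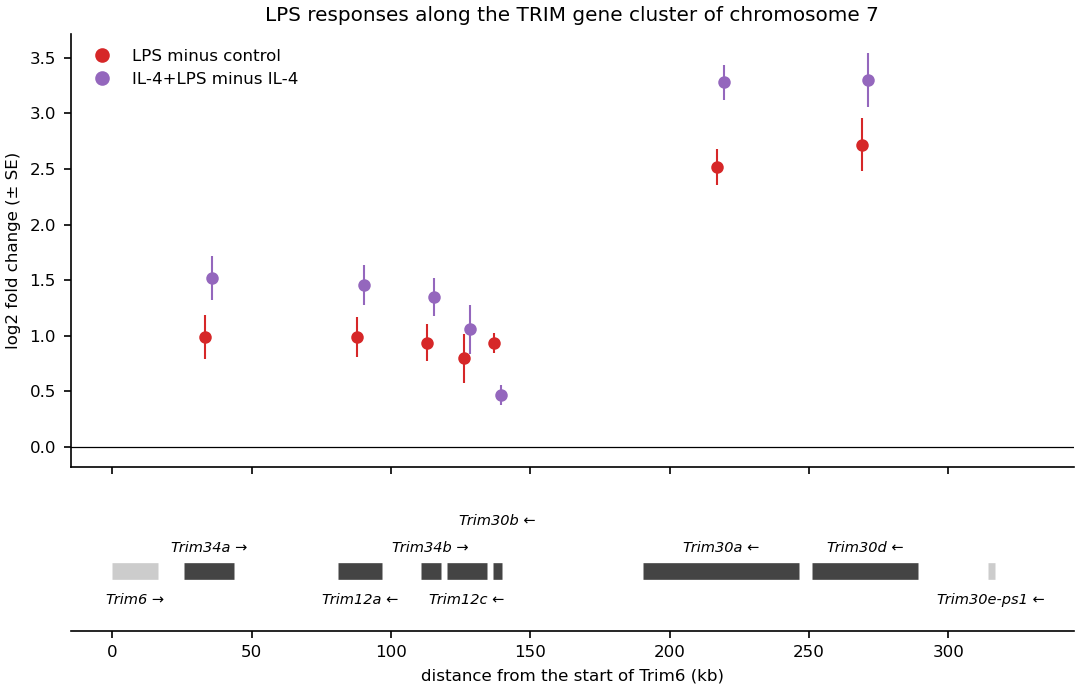
Log2 fold change with LPS (upper panel, vertical axis, with bars of ± 1 SE) for LPS minus control and for IL-4+LPS minus IL-4 along the chromosome 7 cluster (horizontal axis, distance from the start of Trim6 in kb). Blocks mark the genes with arrows for their strand, dark where the gene was tested. All 7 tested genes lie above 0 in both comparisons, and Trim30a and Trim30d lie highest.

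Other raised members had different roles. Trim36, a microtubule-binding ligase with a COS box and the only expressed gene with a Trim number in that subfamily, was at 3.48, 3.01 and 3.34 FPKM in control and at 18.4, 21.8 and 23.4 in LPS samples. The groups were well apart, with a log2 fold change of 2.37 ± 0.14 (limma adjusted p = 1.36e-07). Of the members with an NHL repeat, Trim3 rose by 0.30 ± 0.09 and Trim32, the gene mutated in a form of limb-girdle muscular dystrophy, fell by 0.93 ± 0.10.

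All 3 expressed chromatin regulators of the family fell with LPS, against 57.7% of all rows. Among the 3, Trim24 passed the filter only through samples without LPS. The 3 regulators carry a PHD finger and a bromodomain, and Trim28 is the corepressor of KRAB zinc finger proteins. Trim28 was at 25.8, 41.8 and 34.1 FPKM in control and at 13.8, 21.0 and 18.3 in LPS samples. Replicate 1 was the lowest of both groups, but the groups did not overlap (log2 fold change -0.90 ± 0.21, limma adjusted p = 0.00236). Trim24 fell by 1.00 ± 0.08, from 2.27 ± 0.133 to 0.638 ± 0.0773 FPKM, and Trim33 fell by 0.52 ± 0.16. The call of Trim33 was lost with median scaling (-0.22, limma adjusted p = 0.242) and without LPS replicate 2 (limma adjusted p = 0.056).

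The 9 tested members placed in none of these role groups all fell with LPS, against 57.7% of all rows. They are the remainder of the role lists, and Trim16, Trim62 and Trim68 among them passed the filter only through samples without LPS. Trim47 was at 21.8, 29.7 and 28.0 FPKM in control and at 4.58, 5.76 and 4.64 in LPS samples, and Trim16, which lacks a RING finger, was at 4.73, 5.13 and 5.21 FPKM in control and at 0.524, 0.328 and 0.441 in LPS samples. The groups of both genes were widely separated, with log2 fold changes of -2.19 ± 0.13 and -2.07 ± 0.09 (limma adjusted p = 2.04e-07 and 1.64e-08). Trim41 fell by 1.51 ± 0.10, from 20.5 ± 1.34 to 6.58 ± 0.503 FPKM. Trim62, which has been tied to CARD9 signaling, was at 2.17, 2.56 and 2.38 FPKM in control and at 0.565, 0.469 and 0.485 in LPS samples, so it left the expressed range (it fell by 1.16 ± 0.08). Trim68, named as a coactivator of the androgen receptor, went from 2.21, 1.77 and 2.08 to 0.59, 0.321 and 0.452 FPKM and likewise ended below 1 FPKM (it fell by 1.05 ± 0.12). Trim39, which stabilises the apoptosis modulator MOAP-1, fell by 1.10 ± 0.12, from 4.47 ± 0.754 to 1.53 ± 0.0588 FPKM. Trim37, the gene of mulibrey nanism, fell by 1.04 ± 0.12, from 3.93 ± 0.242 to 1.39 ± 0.0805 FPKM. Trim11 fell by 0.82 ± 0.11 and Trim7 by 0.56 ± 0.16, the latter with no call after median scaling (-0.33, limma adjusted p = 0.0882). Both pairs of tested neighbours within 100 kb outside the chromosome 7 cluster were lowered together, namely Trim47 with Trim65 on chromosome 11, 14472 bases apart, and Trim41 with Trim7 on chromosome 11, 8746 bases apart. In the GENCODE annotation exons of Trim47 and Trim65 overlap in part (8.2% and 3.8% of their exon bases), so some of their reads may be shared.

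Of the members that did not pass the test, Trim35 was at 31.4, 42.5 and 41.0 FPKM in control and at 32.2, 36.9 and 38.2 in LPS samples, and the groups overlapped. The 95% interval of its log2 fold change was -0.34 to 0.17 as deposited, and after median scaling the value was 0.27 (limma adjusted p = 0.0538). Trim14, an adaptor without a RING finger, had a log2 fold change of 0.11 (95% interval -0.16 to 0.38). Its exons overlap those of genes on the opposite strand, among them Nans, over 38% of their bases, and reads of the partners cannot be told apart if the libraries did not keep strand. Trim23, which also carries an ARF GTPase domain, had a log2 fold change of -0.55 (limma adjusted p = 0.0787), with control replicate 1 at 3.75 FPKM against 1.84 and 2.12 in the other two. In replicates 2 and 3 alone all 3 genes passed the test, Trim23 at -0.42, Trim14 at 0.25 and Trim35 at -0.15 (limma adjusted p = 0.00281, 0.0013 and 0.0206).

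The raised and lowered members started from like levels, with control medians of 6.75 FPKM (range 0.121 to 54.5) and 5.32 FPKM (range 2.02 to 33.9). They were compared again in IL-4-pretreated cells. That comparison had no sample in common with LPS minus control, but both took their spread from the same fit over all 12 samples. Whether both used cells of the same animals is not stated. Of the 14 raised members, 13 were also raised by LPS after IL-4, and all 18 lowered members were lowered. Among all rows raised or lowered by LPS alone, 74.2% and 88.4% were called in the same direction after IL-4. Counted over the family, LPS after IL-4 raised 13 and lowered 19 members, against 15% and 57.9% of all rows. With median scaling the counts were 14 and 12, against 23.5% and 36.3%, and replicates 2 and 3 alone gave 13 and 20, against 17.4% and 63.8%. The median row shifted by -0.41, or by -0.12 after median scaling.

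On the log2(FPKM + 1) scale the largest rises after IL-4 were those of Trim30d, Trim30a, Trim21, Trim13 and Trim36. Trim30d went from 4.81, 2.25 and 2.75 FPKM in IL-4 to 48.9, 38.0 and 33.5 in IL-4+LPS samples, Trim30a from 12.3, 8.95 and 9.31 to 109, 106 and 106, and Trim21 from 8.82, 6.71 and 7.74 to 48.4, 53.0 and 54.1. For all 3 genes the IL-4+LPS samples were far above the IL-4 samples, with log2 fold changes of 3.30 ± 0.24, 3.28 ± 0.16 and 2.60 ± 0.09 (limma adjusted p = 7.58e-07, 5.01e-08 and 5.35e-09). Trim13 rose by 2.23 ± 0.14, from 4.62 ± 0.377 to 25.7 ± 4.31 FPKM, and Trim36 by 1.85 ± 0.14, from 5.96 ± 0.0552 to 24.4 ± 5.01 FPKM. The largest falls on this scale were those of Trim65 (-1.95 ± 0.09), Trim47 (-1.38 ± 0.13), Trim16 (-1.23 ± 0.09), Trim8 (-1.18 ± 0.14) and Trim32 (-1.13 ± 0.10). Trim3 was the exception to the shared direction, since it fell by 0.24 ± 0.09 as deposited (limma adjusted p = 0.032) and was at 0.09 after median scaling (limma adjusted p = 0.44). Trim11 also changed sign with median scaling, from -0.28 to 0.04. By role, the chromosome 7 cluster was again higher in 7 of 7, chromatin regulators lower in 3 of 3 and members of no named role group lower in 9 of 9. Of all rows 15% were higher and 57.9% lower. The filter limit given above for Trim16, Trim24, Trim62, Trim65 and Trim68 holds here too. Calls of lower expression that were lost with median scaling were those of Trim3, Trim7, Trim11, Trim28, Trim33, Trim39 and Trim59.

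**Figure D4:**
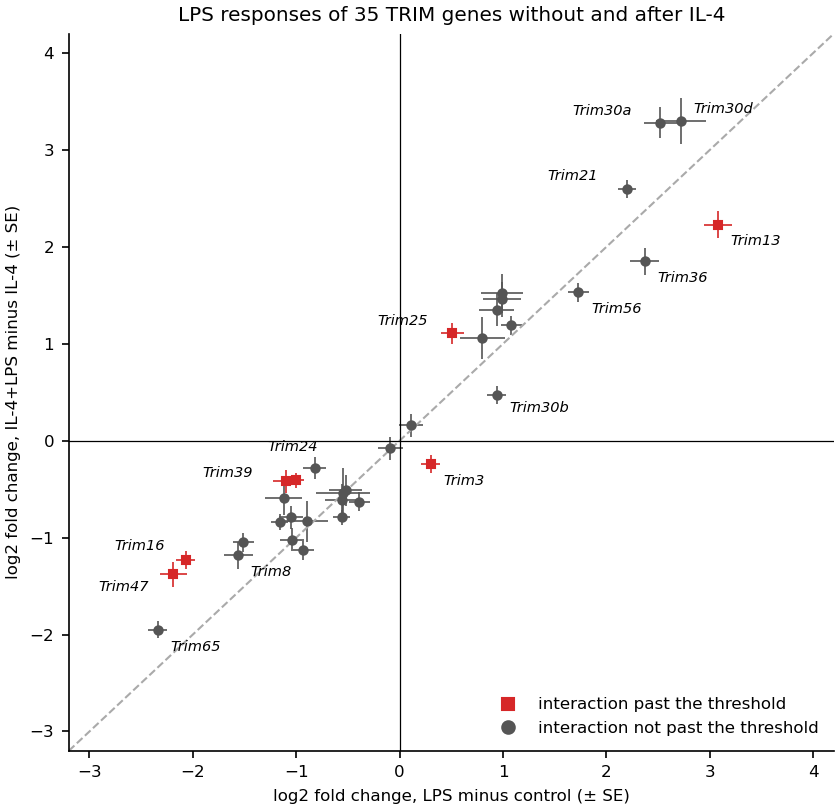
Log2 fold change of 35 TRIM genes with LPS in cells without IL-4 (horizontal axis) and after IL-4 (vertical axis), with bars of ± 1 SE and a dashed line of equal response. Red squares are the 7 genes whose responses differed past the threshold, of which Trim16, Trim24, Trim25, Trim39 and Trim47 lie above the line and Trim3 and Trim13 lie below it.

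Next, the effect of IL-4 alone was examined. IL-4 minus control shares its control samples with LPS minus control, so the members are given side by side and no relation between both is drawn. Only Trim36 rose and 15 members fell, against 16% of all rows higher and 21% lower. Replicates 2 and 3 alone gave 2 higher and 18 lower, against 21.5% and 29.4%. Trim36 was at 5.90, 5.97 and 6.01 FPKM in IL-4 against 3.48, 3.01 and 3.34 in control samples, and every IL-4 sample lay above every control sample (log2 fold change 0.70 ± 0.14, limma adjusted p = 0.00274). On the log2(FPKM + 1) scale the largest falls were those of Trim30a (-0.93 ± 0.16), Trim16 (-0.88 ± 0.09), Trim59 (-0.87 ± 0.18), Trim12a (-0.78 ± 0.18) and Trim34a (-0.73 ± 0.20). Among called members the ratio of control to IL-4 means was highest in Trim59 (2.35), then Trim16 (2.21), Trim30a (2.02) and Trim24 (2.01). Trim30a was at 12.3, 8.95 and 9.31 FPKM in IL-4 against 26.8, 17.9 and 17.1 in control samples, and Trim16 was at 2.27, 2.18 and 2.37 against 4.73, 5.13 and 5.21. Neither gene overlapped between groups. Trim59 was at 1.54 ± 0.392 FPKM in IL-4 against 3.62 ± 0.39 in control samples, and Trim12a at 5.74 ± 1.67 against 10.5 ± 2.45. The other members lowered past the threshold were Trim3, Trim11, Trim21, Trim24, Trim25, Trim30d, Trim39, Trim41, Trim62 and Trim65. The calls of Trim30d (-0.67 ± 0.24, groups overlapping), Trim25, Trim11 and Trim34a were lost in 10, 8, 5 and 3 of the 12 fits that left out 1 sample. Median scaling also ended the calls of Trim30d and Trim25 (limma adjusted p = 0.061 and 0.0875), and a pseudocount of 0.1 that of Trim65 (limma adjusted p = 0.135). In the chromosome 7 cluster 4 of 7 were lowered (Trim12a, Trim30a, Trim30d and Trim34a). Trim13, the member with the largest response to LPS, was at 4.81, 4.19 and 4.87 FPKM in IL-4 samples, within the spread of control (95% interval of the log2 difference -0.35 to 0.27).

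The next comparison asked which members differed between LPS with and without IL-4 pretreatment. In IL-4+LPS minus LPS 1 member was higher and 6 were lower, against 15% and 15.8% of all rows. Replicates 2 and 3 alone gave 4 higher and 13 lower, against 21% and 25.9%. Trim3 was at 14.9, 17.5 and 16.3 FPKM after LPS alone and at 7.41, 8.26 and 7.70 in pretreated cells. The 2 groups were fully apart, with a log2 difference of -0.97 ± 0.09 (limma adjusted p = 1.83e-05), the largest of the family on the log2(FPKM + 1) scale. Trim13 was at 41.7, 50.9 and 52.2 FPKM after LPS alone and at 20.8, 29.1 and 27.0 in pretreated cells. All IL-4+LPS samples were below all LPS samples (log2 difference -0.89 ± 0.14, limma adjusted p = 0.000799) and above every control sample. Trim30b was at 0.327, 0.511 and 0.361 FPKM in IL-4+LPS samples, below its LPS samples (-0.62 ± 0.09). Its ratio of LPS to IL-4+LPS means was 2.86, above the 2.08 of Trim3, but it was tested only through its LPS samples, and 5 lower members remain without it. Trim56 (-0.40 ± 0.10), Trim27 (-0.36 ± 0.10) and Trim32 (-0.32 ± 0.10) were also lower. Trim47, lowered by LPS, was the member that was higher, at 7.63, 8.38 and 8.05 FPKM in IL-4+LPS against 4.58, 5.76 and 4.64 in LPS samples, with no overlap (0.59 ± 0.13, limma adjusted p = 0.00704). The calls of Trim27 and Trim32 were each lost in 4 of the 12 fits that left out 1 sample, and that of Trim32 with quantile normalization (limma adjusted p = 0.0849). For Trim30a and Trim30d, not past the threshold here, the 95% intervals of the log2 difference were -0.53 to 0.19 and -0.63 to 0.43.

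**Figure D5:**
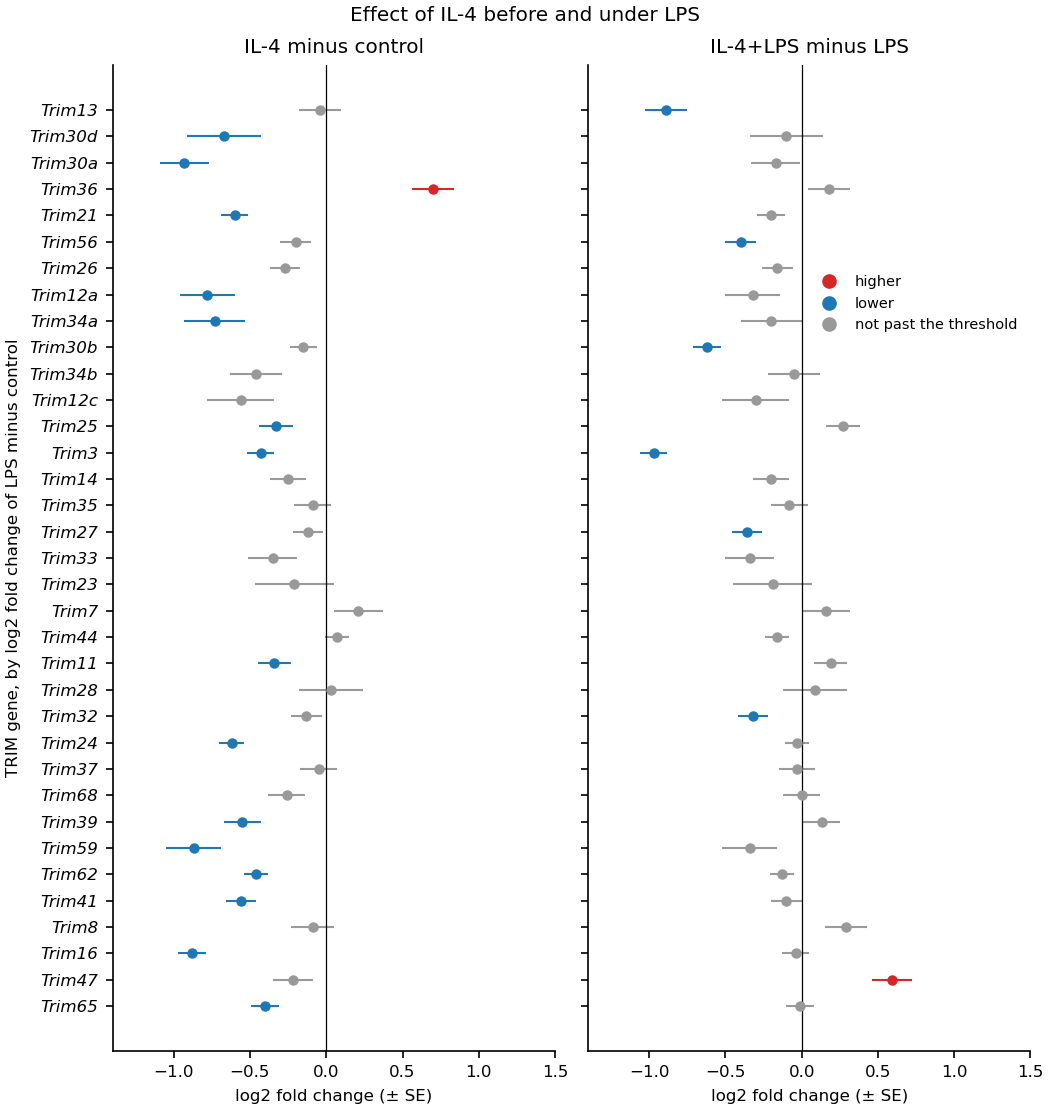
Log2 difference (horizontal axes, with bars of ± 1 SE) of 35 TRIM genes (vertical axis, ordered by the change with LPS alone) for IL-4 minus control on the left and IL-4+LPS minus LPS on the right. Blue points are lower and red points higher past the threshold, 15 and 1 on the left and 6 and 1 on the right. Trim30a, Trim12a and Trim34a are lower on the left and not past the threshold on the right, while Trim13 is so in the reverse order.

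Whether IL-4 changed the size of the LPS response was tested as an interaction, in which a positive value means a larger rise or a smaller fall in pretreated cells. It passed the threshold in 5 members with a positive and 2 with a negative sign, against 4.58% and 4.63% of all rows. Replicates 2 and 3 alone gave 11 and 6, against 13.2% and 12.4%. Positive values were those of Trim16 (0.84 ± 0.12, limma adjusted p = 0.00215), Trim47 (0.81 ± 0.19), Trim39 (0.68 ± 0.17), Trim25 (0.60 ± 0.16) and Trim24 (0.59 ± 0.11, limma adjusted p = 0.00916). Trim25 rose more after IL-4 (1.11 against 0.51), and the other 4 fell less, Trim16 by 1.23 against 2.07. Of these, Trim16, Trim24 and Trim39 started from lower levels in IL-4 than in control samples and reached like levels with LPS, Trim16 for example 0.431 ± 0.098 FPKM after LPS alone and 0.395 ± 0.116 in pretreated cells (n = 3). Trim25 also started lower in IL-4 (43.2 ± 1.9 FPKM) than in control samples (54.5 ± 3.25 FPKM). With LPS its levels did not differ past the threshold between pretreated and other cells (0.27 ± 0.11, limma adjusted p = 0.0976). Negative values were those of Trim13 (-0.85 ± 0.20, limma adjusted p = 0.024) and Trim3 (-0.54 ± 0.12, limma adjusted p = 0.0235). Trim3 rose from 13.0 ± 0.951 to 16.2 ± 1.3 FPKM with LPS alone and went from 9.37 ± 0.85 to 7.79 ± 0.43 FPKM with LPS after IL-4. When single samples were left out, the interactions of Trim16 and Trim24 stayed past the threshold in 12 of 12 fits, that of Trim13 in 8, those of Trim3 and Trim47 in 6 and those of Trim25 and Trim39 in 3. With a pseudocount of 0.1 that of Trim16 had an adjusted p of 0.0632.

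Genes of the surrounding pathways were read from lists. With LPS 16.9% of all rows were called higher and 57.7% lower, and with IL-4 alone 16% and 21%. Of 9 family genes with other symbols, 4 were expressed and all 4 rose with LPS, namely Mefv (3.52 ± 0.13), the gene of the pyrin inflammasome sensor, Rnf135 (0.79 ± 0.07), Pml (0.72 ± 0.09), the scaffold of PML nuclear bodies, and Mid1 (0.63 ± 0.21). Of 12 genes of RIG-I and STING signaling, the pathways in which Trim25, Trim65 and Trim56 act, 8 rose and 3 fell. The RNA sensor genes Ifih1 (MDA5, 4.21 ± 0.18) and Ddx58 (RIG-I, 2.36 ± 0.17) rose while the adaptor gene Mavs fell (-1.77 ± 0.12), and so did Tmem173, the gene of STING (-0.86 ± 0.17), and Irf3 (-0.42 ± 0.11). Of 16 E1 and E2 enzymes 8 rose and 2 fell, with the largest rises in Ube2l6 (1.15 ± 0.12), the E2 of ISG15, and Ube2e2 (1.00 ± 0.16). All 13 genes of the interferon response rose with LPS, with a median log2 fold change of 5.81, and with IL-4 alone 10 of the 13 fell and 1, Usp18, rose (1.23 ± 0.25).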

How the data were processed

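RNA-seq libraries were made from poly-A RNA of BMDMs and sequenced as paired 100-base reads, in 4 groups of 3 samples grouped by their labels. Per the submitters' processing notes and the study's methods, the authors aligned reads to mm10 with TopHat2 2.0.7 and deposited FPKM values per gene from Cufflinks 2.0.2, 1 table per sample. The gene annotation and the strand setting are not given in the sources used here. Fragment counts are unknown, so no counting interval is given, and low values are less precise in shallower samples.

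Rows with at least 1 FPKM in at least 1 sample (11191 of 23847) were tested as log2(FPKM + 1) with limma 3.58.1 in R 4.3.3, in a group-means fit over all 12 samples with a mean-variance trend and Benjamini-Hochberg adjustment over all 11191 rows (threshold 0.05). Fold changes on this scale understate the change of low genes. The fit was tested on simulated data. Tables and figures were made with Python 3.11.15, pandas 2.3.3, numpy 2.4.6 and matplotlib 3.10.9. p-values measure the spread between these samples.

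The alternatives were a pseudocount of 0.1, no filter, 1 FPKM in at least 3 samples, median scaling, quantile normalization, no trend, only the compared groups, a replicate block, replicates 2 and 3 only, Tukey's test per gene and leaving out each sample. A further alternative, median scaling within replicates 2 and 3, was chosen after seeing the data. Deviations from the group means correlated between samples of the same number at 0.124 on average (0.002358 to 0.3863 over 18 pairs). Between samples of different numbers the mean was -0.0596 (36 pairs). The labels name no pairing, and the main fit used none, although all 18 pairs of the same number were positive. An effect shared by samples of a number therefore stays in the spread of that fit, and the replicate block is given as an alternative. Members and lists were chosen with earlier results of these data known. Values were given for the 10 members with the largest changes past the threshold in each direction with LPS, the 5 largest in each other comparison and the 5 with the highest mean; other members were named to complete a role group or because a setting changed their call. Exon overlap and shared 50-base words were read from GENCODE and promoters from RefSeq, both of GRCm38.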

Additional observations from a re-analysis of the deposited data

Results flagged for a closer look

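The LPS response differed between pretreated and untreated cells, by the interaction test in limma, in 7 TRIM genes. Of these 5 were positive and 2 negative, against 4.58% and 4.63% of all rows. The fall with LPS was smaller after IL-4 in Trim16 (an interaction of 0.84 on the log2 scale), Trim47 (0.81), Trim39 (0.68) and Trim24 (0.59), and the rise was larger in Trim25 (0.60). The rise was smaller after IL-4 in Trim13 (-0.85). In Trim3 (-0.54) an increase with LPS alone stood against a decrease after IL-4 that median scaling did not keep. Only Trim16 and Trim24 stayed past the threshold in all 12 fits that left out 1 sample. The interaction of Trim16 was not past it with a pseudocount of 0.1 (limma adjusted p = 0.0632). No group held enough samples for a test of single outlying samples.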

How the results depend on the processing

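Of the 49 values of members with the largest changes in each comparison, none changed direction under any alternative run. Among called members of smaller change, Trim3 and Trim11 changed sign with median scaling for LPS after IL-4. With quantile normalization both did so too, as did Trim24 (-0.41 to 0.02) and Trim39 (-0.42 to 0.10). Called falls with LPS alone that changed sign with quantile normalization were those of Trim7 (-0.56 to 0.02), Trim27 (-0.39 to 0.05) and Trim33 (-0.52 to 0.04). Beyond the fits that left out single samples, calls among the 49 were lost by Trim34a (IL-4 minus control) and Trim27 (IL-4+LPS minus LPS) when only the compared groups were fitted, and by the interactions of Trim16 with a pseudocount of 0.1, Trim25 with no filter or median scaling, Trim3 with quantile normalization, and Trim39 with that and with replicates 2 and 3 only. Other calls of IL-4 minus control that were lost were those of Trim25 with median scaling, Trim30d with median scaling and quantile normalization, Trim65 with a pseudocount of 0.1 and Trim11 with replicates 2 and 3 only, and quantile normalization also ended that of Trim32 in IL-4+LPS minus LPS and those of Trim7, Trim27 and Trim33 with LPS. Counts moved by over 1.5 times as follows. Members higher with IL-4 (1) were 2 with replicates 2 and 3 only, with or without median scaling, and 1 to 2 when single samples were left out. Members lower with LPS after IL-4 (19) were 12 with median scaling and 11 with quantile normalization. With median scaling Trim3, Trim7, Trim11, Trim28, Trim33, Trim39 and Trim59 lost their call. With quantile normalization Trim3, Trim7, Trim11, Trim24, Trim27, Trim33, Trim39 and Trim59 lost it. Members higher in IL-4+LPS than in LPS (1) were 2 with the replicate block, 4 with replicates 2 and 3 only, with or without median scaling, and 1 to 2 when single samples were left out, and members lower (6) were 13 and, with median scaling, 12 in replicates 2 and 3 only. Positive interactions (5) were 9 with the replicate block, 11 with replicates 2 and 3 only, 9 with these scaled to the median, and 2 to 7 when single samples were left out, and negative ones (2) were 6 with replicates 2 and 3 only, 5 with these scaled to the median, and 0 to 3 when single samples were left out. The lowest counts of interactions, 2 and 0, came without IL-4 replicate 3 and without LPS replicate 3, and the negative count was also 0 without LPS replicate 2. The cause of these moves was not tested. The replicate block changed the call of 0 of the 49 values and brought Trim23 past the threshold with LPS (limma adjusted p = 0.00103). With the block 20 members were lower with IL-4 instead of 15, against 28.4% of all rows. The added members were Trim12c, Trim26, Trim33, Trim34b and Trim47. The labels give samples only a number in common, and whether samples of a number share an animal or experiment is not stated. Of the 12 samples, 7 correlated best with a sample of their own number. Depth in fragments is unknown, so for members near 1 FPKM a small change was not detectable, and tests of FPKM cannot show a change of total RNA.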
